A study of Mus musculus with 13 samples.

Results

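The replication-dependent histone genes were examined in peak lists of H3K27ac ChIP–seq from 9 mouse melanoma cell lines. They were taken as the protein-coding genes of the GENCODE M21 annotation of mm10 whose symbol starts with Hist1h, Hist2h, Hist3h or Hist4h, which gave 67 genes of 21951 protein-coding genes. Each list came from 1 line, and there were 2 male Ecad lines (Ma_1007 and Ma_1181), 2 female Ecad lines (Ma_1014 and Ma_1039), 2 male ΔEcad lines (Ma_1062 and Ma_1456) and 3 ΔEcad lines from females (Ma_1057, Ma_1064 and Ma_1069). The study derived the lines from melanomas of mice on a C57BL/6J background that carried Tyr::NRAS Q61K, an activated NRAS driven by the tyrosinase promoter, with Cdkn2a+/- and floxed Cdh1 (F/F), the gene of the adhesion protein E-cadherin. All groups shared these alleles. The ΔEcad lines came from mice that also carried Tyr::CreA, a Cre driven by the tyrosinase promoter, so that Cdh1 was deleted in the melanocyte lineage only, and the Ecad lines came from mice without Cre. The cells received no treatment, and the ages of the animals are not given in the sources used here. Where the labels do not say that lines of a group came from separate mice, p-values measure the spread between these lines.

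Replication-dependent histone genes encode the core histones H2A, H2B, H3 and H4 and the linker histone H1, and they are expressed mainly in S phase, when new DNA has to be packed into nucleosomes. Most lie in dense clusters that are gathered in the cell nucleus at the histone locus body, where NPAT drives their transcription. Their mRNAs end in a stem-loop bound by SLBP in place of a poly(A) tail. H3K27ac, acetylation of lysine 27 of histone H3, marks active promoters and enhancers.

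The 67 genes fell into 7 blocks separated by more than 100 kb. Hist1 on chromosome 13 comprised a block of 18 genes at chr13:21715763-21837530 (called Hist1-1 here), a block of 5 genes at chr13:22035164-22043676 (Hist1-2), a block of 29 genes at chr13:23531050-23764406 (Hist1-3) and the pair Hist1h2ba and Hist1h2aa at chr13:23933773-23934851 (Hist1-4). The 10 Hist2 genes lay at chr3:96219865-96270132, both Hist3 genes at chr11:58948920-58956830 and the single Hist4 gene, Hist4h4, at chr6:136801553-136804415. By class there were 6 H1, 18 H2A, 18 H2B, 12 H3 and 13 H4 genes.

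The stem-loop that sets these genes apart was looked for in the genome within 100 bases after the stop codon, as a perfect stem of 6 bp that starts with GG and closes a loop of 4 bases that starts with TT. It was found in 63 of the 67 genes (94.0%), against 72 of 21752 protein-coding genes with an annotated stop codon (0.331%), and its first base lay 22 to 59 bases after the stop codon with a median of 31. The letters differed by class. The most frequent form was held by 41 genes of the H1, H2A, H2B and H3 classes, the second by 9 genes including Hist1h3e and Hist1h1t, 3 further forms only by H4 genes and 1 form by Hist2h2ac alone. They are shown because they mark these genes as one family, with the stem in capitals, and none was found in this window of Hist1h2an, Hist1h3g, Hist1h4a and Hist2h2be.
41 genes, among them Hist1h1c: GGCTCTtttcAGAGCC
9 genes, among them Hist1h3e: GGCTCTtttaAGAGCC
8 H4 genes, among them Hist4h4: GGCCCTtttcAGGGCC
2 H4 genes, Hist1h4i and Hist2h4: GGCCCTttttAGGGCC
2 H4 genes, Hist1h4j and Hist1h4b: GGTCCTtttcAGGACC

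Promoters were read from the RefSeq table of GRCm38.p6, in which 61 of the 67 genes were matched by gene ID. Over the 250 bases upstream of the RefSeq start, the CCAAT box (letters CCAAT on either strand) was present in 50 of the 61 (82.0%), against 37.5% of the 27025 genes of the table. It was present in all 5 H1, all 18 H2A and all 16 H2B promoters matched, but in 3 of 12 H4 promoters. A TATA box (TATAAA) was present in 28 (45.9%, against 14.3%) and the octamer core (TGCAAAT) in 13 (21.3%, against 4.02%), the latter only in H2A and H2B promoters. The H1 box (AAACACA) was present in 4 of the 5 H1 promoters, and in 7.20% of all genes of the table. None of these letter strings contains another. A match of letters is a description and says nothing of which factor binds.

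The H1 promoters are printed because the H1 class had the smallest share of genes called throughout and, at Hist1h1c, one of the clearest differences in width between lines, with that of the testis gene Hist1h2ba for a promoter without any peak, and those of Hist1h3e and Hist1h4c, the genes with the highest and lowest rank among those of Hist1-3 called throughout. Each is the 150 bases upstream of the RefSeq start on the gene's strand, with matches of the 4 motifs in capitals. The stretches are chr13:23738657-23738806 (plus strand) for Hist1h1c, chr13:21780626-21780775 (minus) for Hist1h1b, chr13:23622559-23622708 (minus) for Hist1h1e, chr13:23763518-23763667 (plus) for Hist1h1a, chr13:23695661-23695810 (plus) for Hist1h1t, chr13:23934157-23934306 (minus) for Hist1h2ba, chr13:23562386-23562535 (minus) for Hist1h3e and chr13:23698459-23698608 (minus) for Hist1h4c.
Hist1h1c: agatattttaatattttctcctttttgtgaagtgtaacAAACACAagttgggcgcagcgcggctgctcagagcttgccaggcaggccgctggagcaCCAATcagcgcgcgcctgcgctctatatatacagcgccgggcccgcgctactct
Hist1h1b: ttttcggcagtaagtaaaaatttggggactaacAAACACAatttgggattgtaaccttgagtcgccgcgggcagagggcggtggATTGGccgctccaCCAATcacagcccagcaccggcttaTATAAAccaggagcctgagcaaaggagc
Hist1h1e: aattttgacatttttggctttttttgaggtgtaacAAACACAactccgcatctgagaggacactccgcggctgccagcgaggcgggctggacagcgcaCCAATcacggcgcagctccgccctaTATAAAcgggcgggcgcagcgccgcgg
Hist1h1a: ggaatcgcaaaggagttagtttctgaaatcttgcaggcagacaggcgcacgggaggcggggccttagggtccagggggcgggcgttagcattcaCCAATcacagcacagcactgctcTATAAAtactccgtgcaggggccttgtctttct
Hist1h1t: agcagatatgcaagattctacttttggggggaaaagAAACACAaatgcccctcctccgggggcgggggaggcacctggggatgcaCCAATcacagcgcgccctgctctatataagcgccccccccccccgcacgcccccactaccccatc
Hist1h2ba: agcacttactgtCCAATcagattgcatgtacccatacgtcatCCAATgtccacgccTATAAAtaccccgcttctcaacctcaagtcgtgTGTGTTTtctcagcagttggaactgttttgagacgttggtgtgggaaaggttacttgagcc
Hist1h3e: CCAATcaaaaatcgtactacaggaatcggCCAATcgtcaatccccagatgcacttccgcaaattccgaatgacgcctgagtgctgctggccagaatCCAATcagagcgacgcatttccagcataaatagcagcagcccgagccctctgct
Hist1h4c: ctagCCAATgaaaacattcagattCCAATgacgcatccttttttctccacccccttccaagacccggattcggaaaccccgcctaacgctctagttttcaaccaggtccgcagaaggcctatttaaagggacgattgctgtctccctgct

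The peak lists held 20741 to 41663 peaks with a median width of 943 to 1195 bp per list, and every list began at a −log10 q of 5.0. The study's methods state a target depth per sample, but the depth reached by each library is not part of a peak list and is unknown. A promoter without a peak is therefore one without a peak past that threshold. A peak also cannot tell a larger share of cells with the mark from more of the mark per cell. All 6 melanocyte markers examined (Sox10, Mitf, Dct, Tyr, Pmel and Mlana) had a promoter peak in all 9 lists, whereas the 11 keratinocyte, fibroblast, endothelial and leukocyte markers had none, apart from Pdgfra in the male Ecad line Ma_1007. A promoter counted as called in a list if any transcription start site of the gene had a peak no more than 1 kb away. Its peak was the one with the highest −log10 q, and the rank of that peak was its percentile of −log10 q within the same list, so that 100 is the strongest peak of the list.

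H3K27ac was found at most histone genes in every line. Of the 67 genes, 53 (79.1%) were called in all 9 lists, 11 in 5 to 8 lists and 3 in none. Among all protein-coding genes 21.1% were called in all 9 lists, and 47.1% in none. No histone gene was called in only 1 to 4 lists. Per list, 56 to 64 histone genes were called (83.6 to 95.5%), against 25.3 to 48.6% of all protein-coding genes. The female ΔEcad line Ma_1069 had the lowest share of all genes (25.3%) but 61 histone genes (91.0%).

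**Figure D1:**
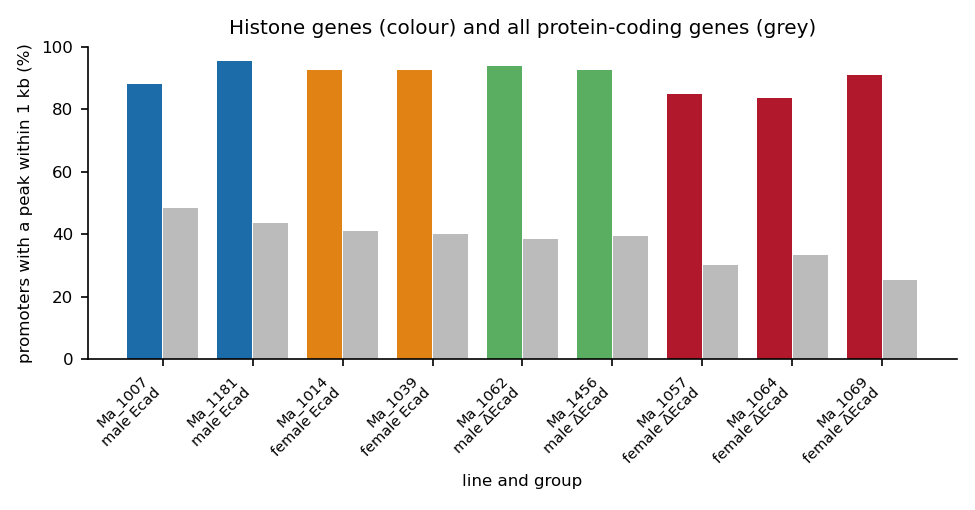
Percentage of promoters with an H3K27ac peak within 1 kb (vertical axis) in each of the 9 lines (horizontal axis). Coloured bars are the 67 histone genes, coloured by group, and grey bars all 21951 protein-coding genes. The histone genes lie between 83.6 and 95.5% and the grey bars between 25.3 and 48.6%.

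Calls are not independent between neighbouring histone genes. The genes called in a list shared 33 to 36 distinct peaks, so that 1.65 to 1.88 genes had the same peak within 1 kb. Of 12 divergent pairs of an H2A and an H2B gene, whose 5′ ends lie 176 to 306 bp apart (median 259.5 bp), 9 had the same strongest peak within 1 kb of both 5′ ends in all 9 lists, which need not cover either end. In 2 further pairs (Hist1h2ah with Hist1h2bk, and Hist1h2bf with Hist1h2ad) every list that called both gave both the same strongest peak. The remaining pair, Hist1h2ba with Hist1h2aa, was called in no list. Mapping is a further limit, since the gene copies are nearly identical. With reads of 100 bases, a median of 12.3% of the 100-base words within 1 kb of a histone gene 5′ end also occurred elsewhere in the genome. Over 50% did so at 9 genes, and all did so at Hist1h2bq, Hist1h2ao, Hist1h2ap and Hist1h2br. Values at these genes could be split between copies.

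The genes missing from all or some lists were named in full. Hist1h2ba and Hist1h2aa encode the H2B and H2A variants made in testis, and neither had a peak within 1 kb in any of the 9 lists. Hist3h2ba was the third gene without a call, although its neighbour Hist3h2a at chr11:58954685-58956830, was called in all 9. The peak of Hist3h2a was also that of Trim17, the other gene inside that block. The testis linker histone gene Hist1h1t was called in 5 lists (Ma_1181, Ma_1014, Ma_1039, Ma_1456 and Ma_1064), but the peaks started 101 to 928 bp downstream of its 5′ end and none covered it. In 4 of the 5 lists this was the peak of Hist1h4c. In the fifth, Ma_1064, the peak had a percentile of 0.222, near the bottom of that list.

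Hist1h2ah and Hist1h2bk, which shared their strongest peak, were called in both male Ecad lines (percentiles of 33.9 and 71.8), in both male ΔEcad lines (46.3 and 0.158) and in 1 of the 3 female ΔEcad lines (5.4 in Ma_1057), and in neither female Ecad line. Hist1h2bf and Hist1h2ad, which also shared theirs, were called in 6 lists, with percentiles of 86.6 in Ma_1181, 84.2 in Ma_1014 and 87.3 in Ma_1039. They stood at 61.3 and 44.8 in the male ΔEcad lines and at 23.5 in Ma_1069, and were not called in Ma_1007, Ma_1057 and Ma_1064. Hist1h3d next to them was called in the same 6 lists. Hist1h1a was called in 5 lists, at percentiles of 86.1 in Ma_1181, 41.9 in Ma_1014, 58.5 in Ma_1039, 71.0 in Ma_1062 and 58.2 in Ma_1069. Its strongest peak covered the 5′ end in Ma_1181 alone. Of the lines, all 4 male and 1 of 5 female lines had the peak of Hist1h2ah and Hist1h2bk, while Hist1h2bf, Hist1h2ad and Hist1h1a were each called in both female Ecad lines and in at least 1 line of every other group. For Hist1h2ah and Hist1h2bk the −log10 q was 5.20 in Ma_1456 and 7.21 in Ma_1057, close to the threshold of 5.0. The share of all genes with such a split is not given, so it cannot be read as a difference between the sexes.

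Among H4 and H3 genes, Hist1h4b was called in 7 lists, all but Ma_1057 and Ma_1064, with percentiles from 3.55 (Ma_1069) to 64.4 (Ma_1181). Its peaks were 469 to 848 bp wide, and it had the lowest median percentile of the genes called in any list (19.7). Hist1h4d was missing from Ma_1057 only, and its percentiles ran from 0.590 in Ma_1062 to 83.6 in Ma_1039. Hist1h3a was missing from Ma_1456 only, with percentiles of 29.5 to 86.1 in the others. Hist1h1d was missing from Ma_1064 only. Its annotated 5′ end lies 1828 bp before its start codon, and around the start codon a peak was present in all 9 lists. With the start codon in place of the transcription start site, 54 genes in place of 53 were called in all 9 lists. For Hist1h2be, whose annotated 5′ end lies beside Hist1h1e and 35168 bp from its start codon, both anchors had a peak in all 9 lists.

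The rank of the peaks varied along the clusters. The highest rank of Hist1-3, and the highest median percentile of all 67 genes, was that of Hist1h3e, an H3 gene, at 91.0 and 97.1 in the male Ecad lines, 92.2 and 97.4 in the female Ecad lines, 92.8 and 88.4 in the male ΔEcad lines and 96.8, 95.9 and 96.6 in the female ΔEcad lines. The groups overlapped and the median was 95.9. Hist1h4c had the lowest rank of that block among genes called throughout. Its values were 37.1 and 68.8 in male Ecad, 53.8 and 53.9 in female Ecad, 33.3 and 35.8 in male ΔEcad and 23.0, 22.1 and 27 in female ΔEcad lines. All 3 female ΔEcad values lay below the other 6. This was so at 11 of the 53 histone genes called throughout (20.8%), against 18% of the 4622 protein-coding genes called throughout. The Hist2 block was uniformly high, with member medians from 80.3 (Hist2h2aa1 and Hist2h3c1) to 94.1 (Hist2h4), and Hist2h4 ranged from 86.8 in Ma_1064 to 96.8 in Ma_1181. Hist4h4 ranged from 86.6 to 98.4, with a median of 92.2.

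In Hist1-1 all 18 genes were called in all 9 lists, with medians between 52.8 for the linker histone gene Hist1h1b and 70.5 for Hist1h3i. In Hist1-2 the medians of genes called throughout ran from 68.6 (Hist1h4i) to 82.5 (the pair Hist1h2ag and Hist1h2bj). The Hist3h2a percentiles were 84.3 and 83.6 in male Ecad, 87.9 and 77.8 in female Ecad, 58.2 and 56.8 in male ΔEcad and 64.8, 61.6 and 64.6 in female ΔEcad lines, so that all 5 ΔEcad lines lay below all 4 Ecad lines. Such a separation was seen at 8 of the 53 histone genes called throughout (15.1%), against 9.65% of the 4622 protein-coding genes called throughout. By class, the median over genes of the median percentile was 78.8 for H3, 67.6 for H2B, 65.0 for H2A, 61.4 for H4 and 57.6 for H1. The ranges of the classes overlapped widely, for example 19.7 to 94.1 for H4 and 55.7 to 95.9 for H3. Of the H1 genes 3 of 6 were called in all 9 lists, of H2A 15 of 18, of H2B 14 of 18, of H3 10 of 12 and of H4 11 of 13.

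**Figure D2:**
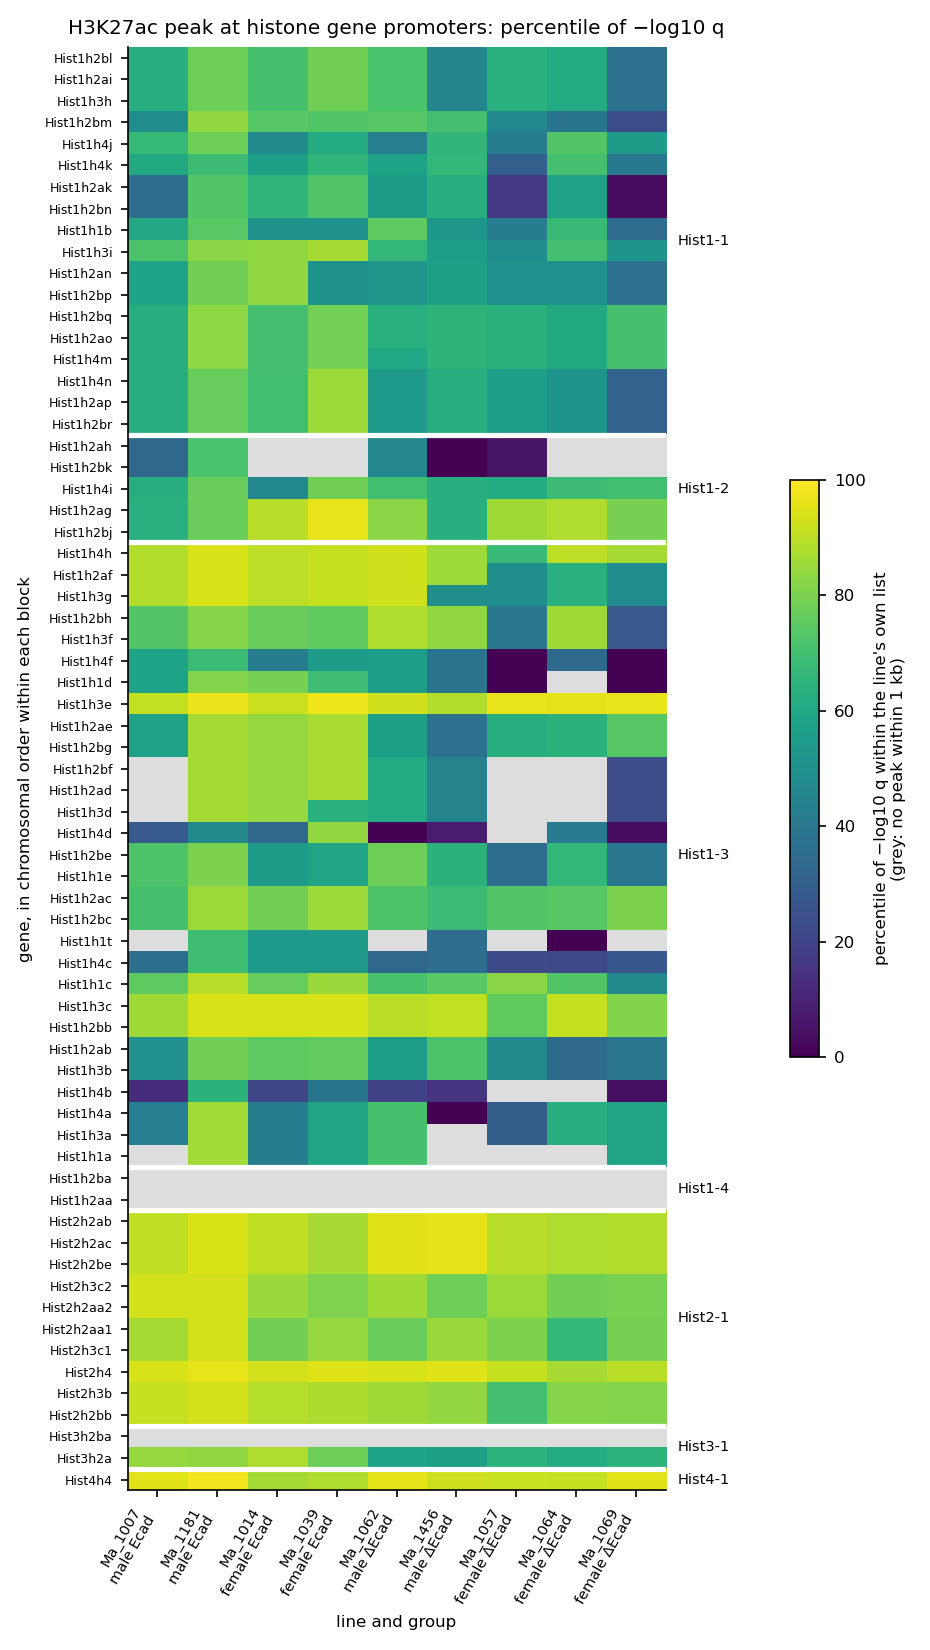
Percentile of −log10 q within each line's own list (colour scale from 0 to 100) for the promoter peak of each histone gene (rows, in chromosomal order and split into the 7 blocks) in the 9 lines (columns). Grey marks a promoter with no peak within 1 kb. The Hist2 rows, Hist4h4 and Hist1h3e are bright in all columns, and the rows of Hist1h2ba, Hist1h2aa and Hist3h2ba are grey throughout.

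The study's design asks whether loss of E-cadherin and sex alter the mark, with the female ΔEcad lines as the group of interest. Exact permutation tests over lines (two-sided) were made in 3 ways, female ΔEcad against the other 6 lines, ΔEcad against Ecad, and female against male. The number of calls did not separate the groups after adjustment. Female ΔEcad lines called 57, 56 and 61 histone genes, and the other 6 lines 59 to 64. The mean was 58 ± 2.65 (SD, n = 3) against 62 ± 1.67 (SD, n = 6; exact permutation p = 0.0238, adjusted p = 0.0714 over the 9 tests of calls, width and percentile). ΔEcad lines called 1.95 fewer genes than Ecad lines (exact permutation p = 0.333, adjusted 0.429), and female lines 2.4 fewer than male lines (exact permutation p = 0.238, adjusted 0.357). Calls over all protein-coding genes were also fewer in the female ΔEcad lines. Their mean share was 29.6%, against 41.9% in the other 6 (exact permutation p = 0.0119, adjusted 0.0536 over the added tests described below). For histone genes the mean shares were 86.6% and 92.5%. The lower number of calls in female ΔEcad lines therefore cannot be read as particular to histone genes.

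No histone gene was called in every list of one group and in no list of the other, in any of the 3 comparisons and in either direction. Among all protein-coding genes this held for 0.0182% (present in female ΔEcad alone) and 2.43% (absent from it alone), for 0% and 0.615% (ΔEcad against Ecad) and for 0.00456% and 0.255% (female against male).

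The median width of histone promoter peaks did not overlap between ΔEcad and Ecad lines. In the female ΔEcad lines the median width over called histone genes was 1003 bp (Ma_1057), 1131 bp (Ma_1064) and 1570 bp (Ma_1069). It was 1802 and 2144 bp in the male ΔEcad lines, 3133 and 3066 bp in the female Ecad lines and 2246 and 3411 bp in the male Ecad lines. The female ΔEcad lines lay below all others. The mean was 1530 ± 472 bp (SD, n = 5) in ΔEcad and 2964 ± 501 bp (SD, n = 4) in Ecad lines, a difference of −1434 bp (exact permutation p = 0.00794, the smallest these 9 lines allow, adjusted 0.0714). The female ΔEcad lines differed from the other 6 by −1399 bp (1235 ± 297 against 2634 ± 651 bp, exact permutation p = 0.0238, adjusted 0.0714), and female from male lines by −420 bp (exact permutation p = 0.484). None of the 9 tests passed 0.05 after adjustment. Within females the ΔEcad minus Ecad difference was −1865 bp (exact permutation p = 0.1) and within males −855.5 bp (exact permutation p = 0.333). Neither could pass 0.05, since 10 and 6 choices of lines were possible, and the effect did not differ detectably between the sexes (exact permutation p = 0.383).

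Promoter peaks of other genes were also narrower in the female ΔEcad lines. The median width over all called protein-coding promoters was 890.5 to 985.5 bp in the female ΔEcad lines and 1147 to 1446 bp in the other 6 (exact permutation p = 0.0119, adjusted 0.0536 over 18 added tests). Between ΔEcad and Ecad lines this median differed by −235.7 bp (1052 ± 187 bp, SD, n = 5, against 1288 ± 125 bp, SD, n = 4; exact permutation p = 0.103, adjusted 0.133). In relation to that median, histone peaks were 1.11, 1.15 and 1.76 times as wide in the female ΔEcad lines and 1.55 to 2.67 times in the other 6. For this ratio the difference was −0.744 between female ΔEcad and the other lines (exact permutation p = 0.0714, adjusted 0.107) and −0.895 between ΔEcad and Ecad lines (exact permutation p = 0.0317, adjusted 0.0635). Whether the depth or the enrichment of a library plays a part in these widths was not tested.

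**Figure D3:**
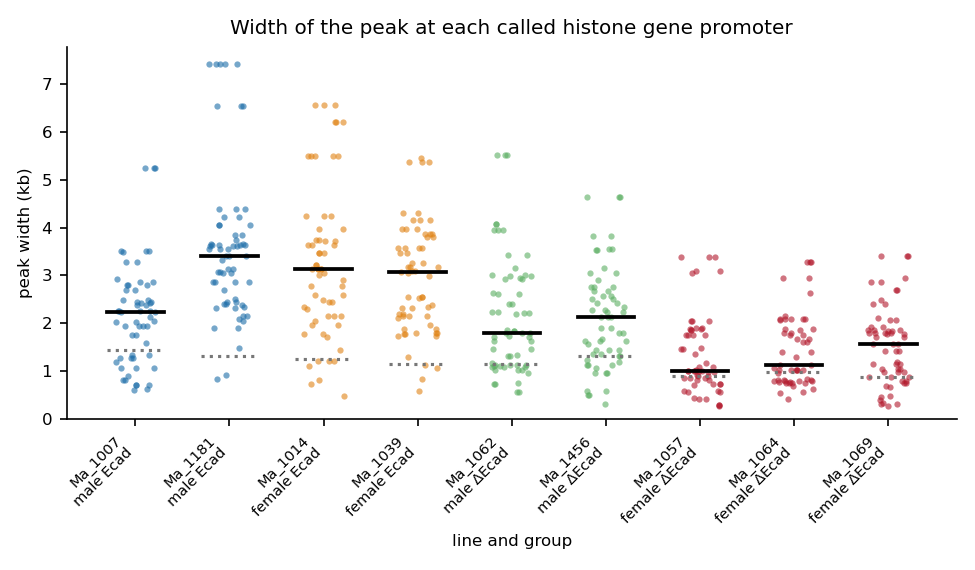
Width in kb (vertical axis) of the promoter peak of each called histone gene (1 point per gene, points of genes that share a peak coincide in height) in the 9 lines (horizontal axis, coloured by group). Black bars are the median over histone genes and dotted grey bars the median over all called protein-coding promoters. The black bars lie at 1003 to 1570 bp in the 3 female ΔEcad lines and at 1802 to 3411 bp in the other 6.

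Gene by gene, the width of the promoter peak was lower in all 3 female ΔEcad lists than in any other list at 32 of the 53 histone genes called in all 9 (60.4%), against 32.2% of the 4622 protein-coding genes called in all 9, and higher at none, against 0.519%. The 32 genes fell into 21 sets that shared peaks, of 34 for the 53. The mean width in the female ΔEcad lines, as a percentage of the mean of the other 6, had a median of 51.4% over the 53 genes (range 20.1 to 94.2%) and of 63.9% over all 4622. ΔEcad lists were all narrower than all Ecad lists at 4 genes (7.55%, against 7.62%), and female than male lists at 6 (11.3%, against 10.2%), both near the level of all genes. The percentile was lower in all 3 female ΔEcad lists at 11 genes (20.8%, against 18%), in all ΔEcad lists at 8 (15.1%, against 9.65%) and in all female lists at none (against 5.84%).

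At some of these genes 1 broad peak stood against 2 narrow ones. At Hist1h1c, which encodes the linker histone H1.2 and lies at chr13:23738808-23740367 (promoter printed above), the peak was 2937 and 3640 bp wide in male Ecad, 3060 and 3050 bp in female Ecad and 2956 and 2898 bp in male ΔEcad lines. It was 743, 626 and 696 bp in the female ΔEcad lines, all below the other 6. In the other 6 lines it ran from 903 to 1093 bp upstream of the 5′ end to 1969 to 2546 bp downstream of it. In the 3 female ΔEcad lines it began 727 to 833 bp upstream and ended 91 to 129 bp before the 5′ end, and a second peak lay within 1 kb. Bases under any peak within 1 kb of the 5′ end were 1491, 1360 and 1139 of 2001 in these lines and 1904 to 2001 in the other 6. The percentile of the strongest peak overlapped between the groups (82.7, 73.0 and 47.1 against 71.4 to 89.4).

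The same arrangement was seen at Hist2h2aa1 in Hist2. At Hist2h2aa1, an H2A gene at chr3:96245497-96246082, 1 peak of 2329 to 2599 bp covered the 5′ end in the 6 other lines. In the female ΔEcad lines there were 2 peaks, of which the stronger was 818, 762 and 807 bp wide and began 152 to 165 bp downstream of the 5′ end. At Hist2h3c2, an H3 gene at chr3:96238108-96239127, the strongest peak was also narrower, at 893, 813 and 892 bp in the female ΔEcad lines and 1736 to 1956 bp in the other 6. Within 1 kb of Hist2h3c2 the other 6 lines had 2 peaks and the female ΔEcad lines 1, 2 and 1, and the strongest covered its 5′ end in no list. This strongest peak was also that of the neighbouring H2A gene Hist2h2aa2. Within 1 kb of Hist2h2aa2 there was 1 peak in the other 6 lines and 2 in each female ΔEcad line, so that it was split there. These Hist2 genes are nearly duplicated, with 47.9% and 71.7% of the 100-base words around Hist2h2aa1 and Hist2h3c2 found elsewhere as well. At Hist1h1c this share was 3.89%. The neighbouring Hist2h4, of which no word was repeated, had peaks of 3056, 2633 and 2938 bp in the female ΔEcad lines and 3082 to 3731 bp in the others, so the groups did not overlap but lay close together.

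In Hist1-3, Hist1h2af shared 1 peak of 5252 to 6558 bp with Hist1h4h in 5 lines and of 3535 bp in Ma_1456. In the female ΔEcad lines its strongest peak was 1100, 1131 and 1054 bp wide, and its percentile was 49.97, 63.6 and 48.5 against 85.5 to 94.0 in the others. At Hist1h4f the widths were 301, 415 and 318 bp against 1080 to 2317 bp, and the percentiles 0.671, 34.6 and 0.550 against 38.5 to 68.1. The linker histone gene Hist1h1e had widths of 1766, 1762 and 1782 bp against 1893 to 3007 bp, and Hist1h1b 724, 1405 and 891 bp against 1580 to 2505 bp. The 5′ end of Hist1h1b lay under its strongest peak in all 4 Ecad lines and in none of the 5 ΔEcad lines. This separation was singled out after the values were seen, and the share of all genes that show it is not given. By contrast the pair Hist1h2ag and Hist1h2bj in Hist1-2 had peaks of 3099, 2943 and 2864 bp in the female ΔEcad lines, within the range of 1442 to 4388 bp of the others.

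**Figure D4:**
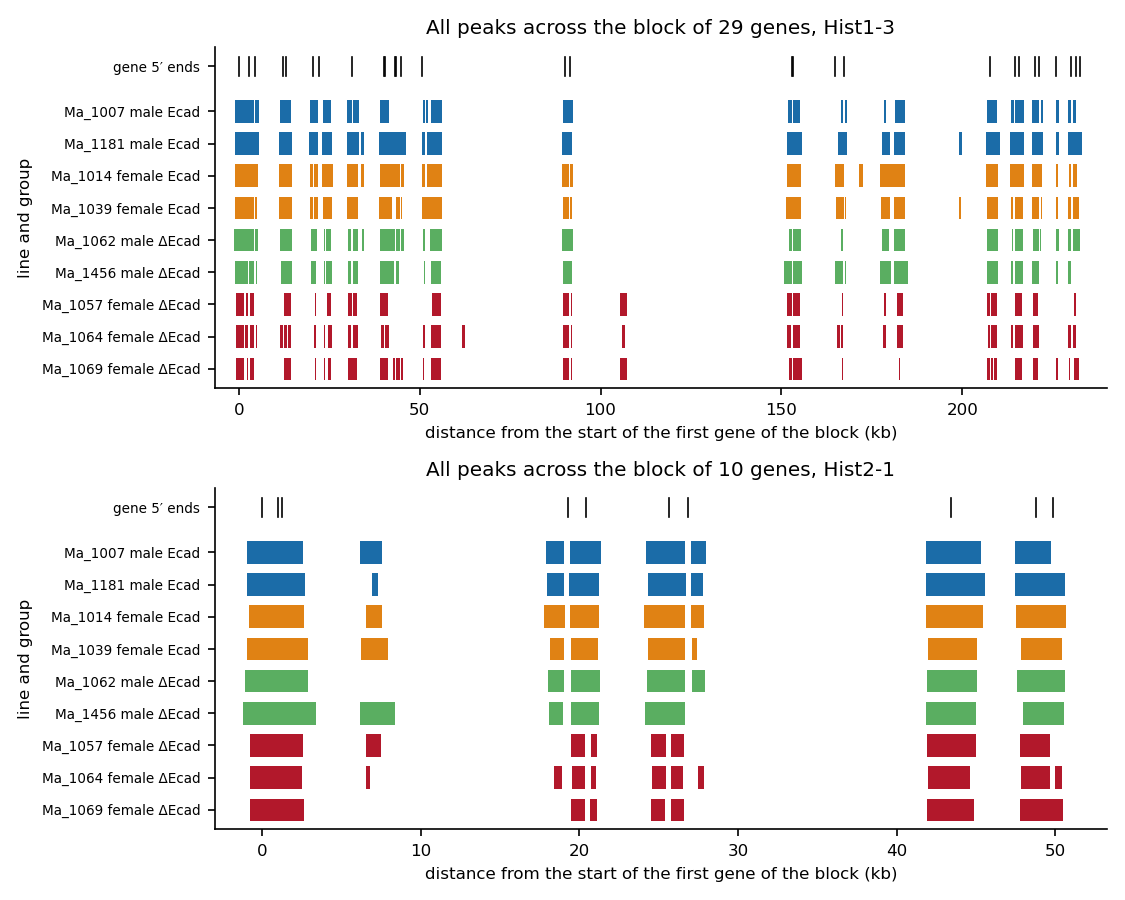
All H3K27ac peaks (boxes, to scale, coloured by group) of the 9 lines (rows) across the blocks Hist1-3 and Hist2-1, by distance in kb from the start of the first gene of the block. Black ticks in the top row are gene 5′ ends. Wide boxes of the other 6 lines are narrower or split in the 3 female ΔEcad rows, for example at about 208 kb in Hist1-3 (Hist1h1c) and at about 20 and 25 kb in Hist2-1.

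When all peaks near a gene were added up, the female ΔEcad lines were again lowest. This measure is capped by its window of 2001 bases, a cap that the median of Ma_1181 reached, so its differences cannot be compared in size with those of width. The median over the 67 genes of the bases covered within 1 kb of the 5′ end, of 2001, was 1067, 1283 and 1341 in the female ΔEcad lines and 1520 to 2001 in the other 6. The means were 1230 ± 144 (SD, n = 3) and 1743 ± 172 bases (SD, n = 6; exact permutation p = 0.0119, the smallest possible, adjusted 0.0476 over 6 tests of coverage and peak number, which were added after the data were seen). ΔEcad and Ecad lines had 1369 ± 220 (SD, n = 5) and 1825 ± 141 bases (SD, n = 4; exact permutation p = 0.0159, adjusted 0.0476). Of the 53 histone genes with such a peak in all 9 lists, 23 (43.4%) were less covered in every female ΔEcad list than in any other, against 36.0% of all 4045 protein-coding genes with one. Genes with at least 2 peaks within 1 kb numbered 22, 30 and 22 in the female ΔEcad lines and 3 to 28 in the other 6 (exact permutation p = 0.25).

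Fewer 5′ ends themselves lay under a peak in the female ΔEcad lines. A peak covered the 5′ end at 23.9 to 37.3% of the 67 genes in the female ΔEcad lines and at 46.3 to 88.1% in the other 6. At 500 bp downstream the shares were 58.2 to 65.7% and 80.6 to 92.5%, and at 500 bp upstream 68.7 to 76.1% and 76.1 to 91.0%. In Ma_1181 the share at the 5′ end (88.1%) was close to that of its flanks. Over all protein-coding genes the 5′ end was covered at 8.40 to 13.5% in the female ΔEcad lines and at 17.9 to 33.6% in the others. When a call required a peak over a transcription start site, 19, 17 and 25 histone genes were called in the female ΔEcad lines and 32 to 59 in the other 6 (difference −20.7, exact permutation p = 0.0238), and 12 genes were called in all 9 lists. The share of all protein-coding genes called under this rule was not computed.

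**Figure D5:**
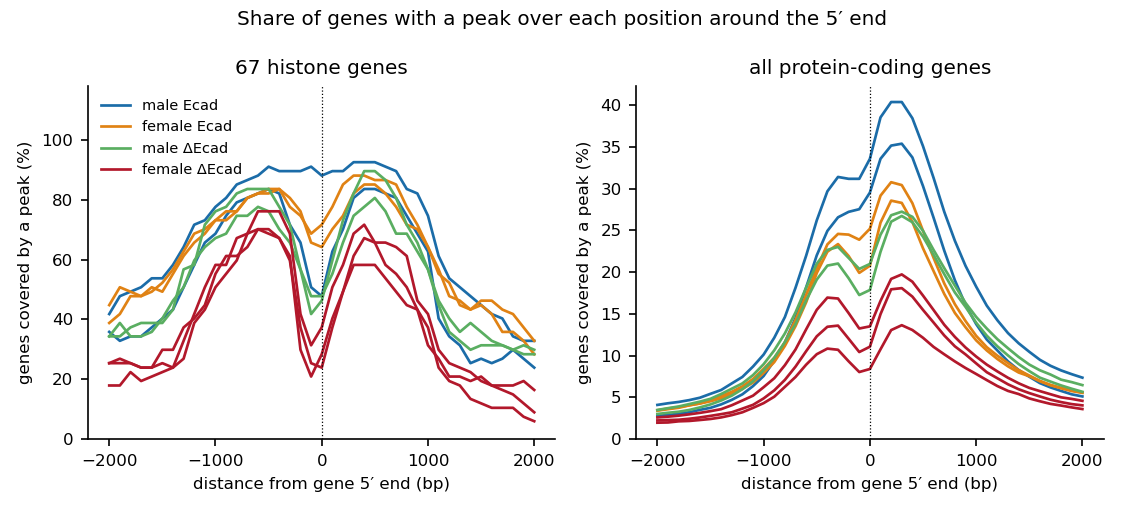
Percentage of genes with a peak over each position from 2 kb upstream to 2 kb downstream of the 5′ end (horizontal axis, in bp), with 1 curve per line coloured by group, for the 67 histone genes (left) and all protein-coding genes (right; the vertical scales differ). At the 5′ end the 3 female ΔEcad curves lie lowest, at 23.9 to 37.3% of the histone genes against 46.3 to 88.1% in the other 6, while upstream Ma_1069 reaches the male ΔEcad line Ma_1456 at 500 bp and lies above it at 400 and 300 bp.

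Over whole blocks, peaks covered 12.5 to 14.6% of Hist1-1 in the female ΔEcad lines and 19.7 to 24.1% in the other 6. Of Hist1-3 they covered 12.7 to 14.4% and 19.1 to 26.7%, and of Hist2 23.1 to 23.7% and 30.7 to 34.0%. Of Hist3 they covered 10.5 to 12.1% and 13.1 to 23.7%. The ranges overlapped in Hist4, at 30.7 to 37.1% and 36.3 to 47.3%. They also overlapped in Hist1-2, where the male ΔEcad line Ma_1456 was the least covered. The number of peaks in these blocks overlapped between the groups, for example 17 to 19 against 11 to 20 in Hist1-1. Coverage of the rest of the genome is not given, so lower coverage cannot be read as particular to these blocks. Over whole lists the median peak width was also lower, at 943 to 1019 bp in the female ΔEcad lines and 1059 to 1195 bp in the other 6. The peaks of the 9 lists merged into 45 regions in the blocks, of which 32 (71.1%) held a peak of every list, against 13.7% of all 59673 merged regions. Of the 45 regions, 10 lay over 1 kb from every histone gene 5′ end, and of these 1 held a peak of all 9 lists. That merged region reached over the 5′ end of Hfe, a regulator of iron uptake, but the Hfe promoter itself was not called in all 9 lists. A single region, at chr13:23636324-23638501 in Hist1-3, held peaks of all 3 female ΔEcad lists and of none of the other 6. It was singled out after its values were seen, lay 13766 bp from the nearest gene 5′ end, that of Hist1h1e, and was 1 of 45 regions, against 0.434% of all merged regions. No region of the blocks was present in the other 6 lists alone, against 1.34%.

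Genes that act on the clusters or encode other histones were called in part. Of all protein-coding genes, 21.1% were called in all 9 lists and 25.3 to 48.6% per list. The counts that follow were not tested against these shares. Of 16 genes of histone gene transcription and histone mRNA processing, 4 were called in all 9 lists (Npat, the cluster activator, Slbp, the stem-loop binder, Cpsf3, the cleaving nuclease, and Srrt) and the other 12 in 1 to 8, with 5 to 16 called per list. Slbp had a median percentile of 91.2 (range 66.1 to 97.2) and Npat of 54.2 (7.76 to 71.7). Lsm11, a part of the U7 particle that cuts histone pre-mRNA, was called in Ma_1181 only. Of 11 replication-independent histone genes, which encode variants made also outside S phase, 6 were called in all 9 lists (H3f3a, H3f3b, H2afz, H2afv, H1f0 and Cenpa), 4 in some and H2afy2 in none. H3f3b, which encodes H3.3, had a median percentile of 89.6. Of 10 histone chaperones, 5 were called in all 9 lists and 5 in some, with Rbbp4, a chaperone subunit, highest at a median of 96.8.

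The ranks themselves did not separate the groups beyond their spread. The median percentile over called histone genes was 63.2, 66.4 and 51.6 in the female ΔEcad lines, 71.0 and 63.6 in the male ΔEcad lines, 77.9 and 79.8 in the female Ecad lines and 63.2 and 83.0 in the male Ecad lines. The difference was −12.7 percentile points between female ΔEcad and the other 6 lines (exact permutation p = 0.0714), −12.8 between ΔEcad and Ecad (exact permutation p = 0.0635) and −2.46 between female and male lines (exact permutation p = 0.698). After adjustment over the 9 tests these were 0.129, 0.129 and 0.698.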

How the data were processed

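H3K27ac ChIP–seq was done on fixed, sonicated chromatin of 9 lines with 4 input libraries. Per the study's methods an equimolar pool of the libraries was read as pairs of 100 bases. The labels name Bowtie2 2.4.5, MACS2 2.2.7.1, deepTools 3.5.1.0.0 and GRCm38 (mm10) in the submitters' processing notes. Peak caller settings and which input served which list are not given in the sources used here, the labels give no batch, and the inputs were not analysed here. The deposited lists give per peak a score (10 times the −log10 q, rounded down, for nearly all peaks), a fold enrichment, which is a linear ratio, and −log10 p and −log10 q. The authors' −log10 q ranked peaks within a list only.

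Promoter calls used GENCODE M21 and a window of 1 kb. Differences between means of lines were tested by exact two-sided permutation over all choices of lines, with Benjamini–Hochberg adjustment over 9 tests, in Python 3.11.15 with NumPy 2.4.6, tested on simulated data. Genes named were those with the highest and lowest median percentile in each block among genes called in all 9 lists, every gene not called in all 9, all Hist3 and Hist4 genes and the testis genes. Those named for width, coverage or separation (Hist1h1c, Hist1h1e, Hist1h2af, Hist1h4f, Hist2h2aa2 and Hist2h3c2), the 5′ end of Hist1h1b and the added measures were chosen after their values were seen. The members and lists were chosen with earlier results of these data known. Figures were drawn with matplotlib 3.10.9.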

Additional observations from a re-analysis of the deposited data

How the results depend on the processing

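The tests of calls, width and percentile were repeated under 8 alternatives and with each of the 9 lines left out in turn, where the threshold was an unadjusted exact permutation p of 0.05. Of 150 such values, 130 kept their direction and their side of the threshold. The 130 include 1 alternative that changed nothing, the gene 5′ end in place of every start site. It gave each line the same calls, median width and median percentile as the main rule, so it adds no support. The width differences between ΔEcad and Ecad and between female ΔEcad and the other lines kept both under all 8 alternatives. With a line left out, the width difference of female ΔEcad lines ran from −1567 to −1244 bp, and passed 0.05 except without a female Ecad line, Ma_1014 or Ma_1039 (−1299 and −1313 bp, exact permutation p = 0.0536 each). The difference in calls for female ΔEcad ran from −5.50 to −3 with a line left out and lost p < 0.05 without any 1 of Ma_1014, Ma_1039, Ma_1456, Ma_1057 or Ma_1064 (exact permutation p = 0.0714 to 0.107), with the 20000 strongest peaks of each list (−5.50, p = 0.202) and with peak summits within 1 kb (−0.667, p = 0.845).

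A stricter or looser call moved others past 0.05 in exact permutation tests. Female minus male calls were −2.50 within 2 kb (exact permutation p = 0.00794). ΔEcad minus Ecad calls were −20.5 for peaks over the start site (exact permutation p = 0.0238), −5.55 for a −log10 q of at least 10 (p = 0.0476) and turned to 3.35 for summits within 1 kb (p = 0.127). Without the 9 genes of mostly repeated sequence, chosen after seeing the data, the percentile difference was −15.8 for female ΔEcad and −14.6 for ΔEcad against Ecad (exact permutation p = 0.0476 each). The latter was −17.1 without Ma_1007 (exact permutation p = 0.0179), and ran from −17.1 to −9.95 with a line left out. Female minus male percentiles turned positive for peaks over the start site (0.849) and for the 20000 strongest peaks (2.67), and ran from −5.47 to 1.81 with a line left out, positive without Ma_1181 or Ma_1069.

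For peaks over the start site, 12 genes in place of 53 were called in all lists and 9 in place of 32 were narrower in every female ΔEcad list. Genes complete in one group and absent from the other then numbered 2 (female against male), 4 (female ΔEcad) and 1 (ΔEcad against Ecad). For female ΔEcad they numbered 1 with the 20000 strongest peaks and 2 with a −log10 q of at least 10, and 0 to 1 with a line left out, and for female against male 0 to 2. Shares over all protein-coding genes were not computed under any of these alternatives. None of these counts can therefore be read as particular to histone genes. No paired analysis was possible because each list came from a different line and the labels pair no lines. The unknown depth reached by each library limits every absence and width.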
